A study of Mus musculus with 36 samples.

Results

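Vomeronasal type 1 receptors (V1Rs) are a large family of G protein-coupled pheromone receptors, named Vmn1r in the mouse. The members described here are the H3K9me3 ChIP-seq bins on autosomes whose nearest gene, as assigned by the authors, has a symbol starting with Vmn1r. Over the authors' 6 deposited comparison tables these were 1874 of 786789 listed bins, and each table held between 289 and 332 of them. The bins were assigned to 144 V1R genes, of which 109 had a bin in every table. RefSeq (GRCm38.p6) lists 231 protein-coding V1R genes on autosomes, and all 144 are among them. No listed bin off the autosomes was assigned to a V1R gene.

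V1Rs are expressed by sensory neurons in the apical layer of the vomeronasal organ, each neuron using a single receptor gene. The genes lie in dense clusters that are rich in interspersed repeats, and the signal runs from the receptor through the G protein subunit Gnai2 to phospholipase C and the cation channel Trpc2. H3K9me3, trimethylation of histone H3 at lysine 9, marks constitutive heterochromatin and is commonly laid over repeats and over silent gene clusters, among them those of chemosensory receptors.

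The mark was profiled in liver of offspring of dams on a control diet (control females, CF, and control males, CM) and of dams with maternal obesity (MO; MF and MM), which ate a Western-style diet from before mating through lactation. Offspring were studied at 3 weeks of age, before weaning, or at 8 weeks, after 5 weeks on chow, with 4 libraries in each of the 8 groups and 4 input libraries. All groups were of the Reg3g line on a C57BL/6J background (Reg3g fl/+ or fl/fl littermates kept as controls), so the floxed allele is shared by every group. Each library came from liver tissue as a whole, and a change in cell makeup and a change within a cell type cannot be told apart. The label of the tissue was not checked against marker genes, since no expression values were used.

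For each short bin the tables hold the log2 ratio of the compared groups, the mean log2 CPM (read counts relative to library size), and the p-value of edgeR's exact test with its false discovery rate (FDR). No value per library was analysed, so the spread between animals is not shown directly. The approximate standard errors (SE) printed here were derived from each deposited change and its p-value. CPM levels printed for single groups were derived from the deposited average and the fold change. A change with age was called at an FDR under 0.05, with gains by 8 weeks written as positive. A change with MO was called at an unadjusted p under 0.001, with higher levels in MO offspring written as positive.

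A set of bins called higher at 8 weeks in control males shared a stretch of sequence, although they lie beside receptor genes on different chromosomes. The stretch is shown from the bin nearest to Vmn1r41 (chr6:89761833-89761908), nearest to Vmn1r84 (chr7:12387455-12387530), nearest to Vmn1r66 (chr7:10233148-10233223) and nearest to Vmn1r87 (chr7:13147867-13147943), all in GRCm38 and on the plus strand. Capitals mark bases identical to the Vmn1r41 stretch in the alignment. The other copies matched 75, 73 and 73 of its 76 bases.

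Vmn1r41: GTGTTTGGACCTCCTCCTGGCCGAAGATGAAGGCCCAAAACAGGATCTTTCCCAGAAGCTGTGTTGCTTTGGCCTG
Vmn1r84: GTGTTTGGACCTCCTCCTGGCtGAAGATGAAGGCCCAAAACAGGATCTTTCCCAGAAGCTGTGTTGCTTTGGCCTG
Vmn1r66: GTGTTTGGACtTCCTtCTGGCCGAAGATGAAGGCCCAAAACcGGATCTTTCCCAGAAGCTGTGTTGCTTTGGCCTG
Vmn1r87: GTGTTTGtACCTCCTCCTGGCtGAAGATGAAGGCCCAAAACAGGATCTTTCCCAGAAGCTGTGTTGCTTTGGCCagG

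Further sequences show the range of the members. The first is the least masked 200 bases of the male bin nearest to Vmn1r233 (chr17:20984963-20985162, plus strand), the bin with the smallest p among the members, and capitals mark the 43 bases that the reference does not soft-mask as repeat. The second is the matching window of the female bin nearest to Vmn1r53 (chr6:90233277-90233476, plus strand), a gained bin with no copy among the tested bins, in which all 200 bases are unmasked. The third is the 250 bases before the start of Vmn1r45 (chr6:89940508-89940757, minus strand, RefSeq), a receptor whose RefSeq start lies inside a tested bin, and capitals mark the 43 bases inside that bin.

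Vmn1r233: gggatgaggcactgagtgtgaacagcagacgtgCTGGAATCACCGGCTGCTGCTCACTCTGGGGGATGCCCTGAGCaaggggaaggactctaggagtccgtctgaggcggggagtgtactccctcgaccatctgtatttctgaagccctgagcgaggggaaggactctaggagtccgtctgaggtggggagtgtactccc
Vmn1r53: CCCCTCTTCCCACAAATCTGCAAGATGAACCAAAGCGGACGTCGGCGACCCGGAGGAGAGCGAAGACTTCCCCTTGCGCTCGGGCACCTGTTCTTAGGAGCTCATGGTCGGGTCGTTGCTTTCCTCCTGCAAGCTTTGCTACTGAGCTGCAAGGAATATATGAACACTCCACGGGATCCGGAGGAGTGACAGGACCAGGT
Vmn1r45: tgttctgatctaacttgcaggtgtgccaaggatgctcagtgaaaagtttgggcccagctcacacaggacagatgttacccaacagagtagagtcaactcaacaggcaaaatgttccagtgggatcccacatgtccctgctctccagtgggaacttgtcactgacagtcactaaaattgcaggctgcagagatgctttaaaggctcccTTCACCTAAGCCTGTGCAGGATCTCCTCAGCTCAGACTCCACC

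Most member bins lay between the receptor genes and not on them. Among the female age bins 250 of 306 (81.7%) were annotated as distal intergenic, and among the male ones 271 of 325 (83.4%). Over all autosomal bins the shares were 38.0% and 37.9%. The median distance to the start of the assigned receptor was 15852 bp in females and 15148 bp in males, and 9 and 10 bins lay in a promoter, within 3 kb of the start. By GENCODE, 29 female and 28 male bins overlapped a V1R gene, 17 in each sex overlapped a V1R exon, and 0 and 1 reached coding sequence. The male bin in coding sequence belonged to Vmn1r48. The mark measured here is therefore mainly that of the DNA between receptor genes, and the receptor symbol names a neighbourhood.

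The member bins were rich in repeat sequence. A median 69.2% of the bases of a female member bin was soft-masked, against 11.9% over all autosomal bins, and for male bins these shares were 74.3% and 12.2%. GC content was similar, at 53.9% in both sexes against 54.4% and 53.9%. Signal per length was somewhat higher near receptor genes than over all autosomal bins. Its median was 17.8 CPM per kb in females against 14.0, and 13.9 against 10.1 in males. Autosomal bins that were mostly soft-masked had similar medians, 18.1 in females and 13.4 in males. The highest average signal of any member in both age tables was in the bin nearest to Vmn1r230 on chromosome 17, at 19.2 CPM in females (42.5 CPM per kb) and 20.4 CPM in males (41.1 CPM per kb). The bins nearest to Vmn1r42, Vmn1r64 and Vmn1r66 were also among the 5 highest in each age table, with the fifth place taken by Vmn1r80 in females and Vmn1r191 in males.

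Between 3 and 8 weeks, H3K9me3 near V1R genes rose at more bins than it fell, in both sexes. In control females 13 of 306 member bins were called (4.25%, against 2.08% of all autosomal bins): 11 were higher at 8 weeks and 2 lower. The background shares by direction were 0.812% higher and 1.27% lower. In control males 38 of 325 were called (11.7%, against 4.36%), 34 higher and 4 lower, with background shares of 2.36% and 2.00%. The median change of all member bins was 0.08 in females, against -0.05 over all autosomal bins, and 0.28 in males, against -0.05. The change was positive in 168 of 306 female bins and 227 of 325 male bins.

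**Figure D1:**
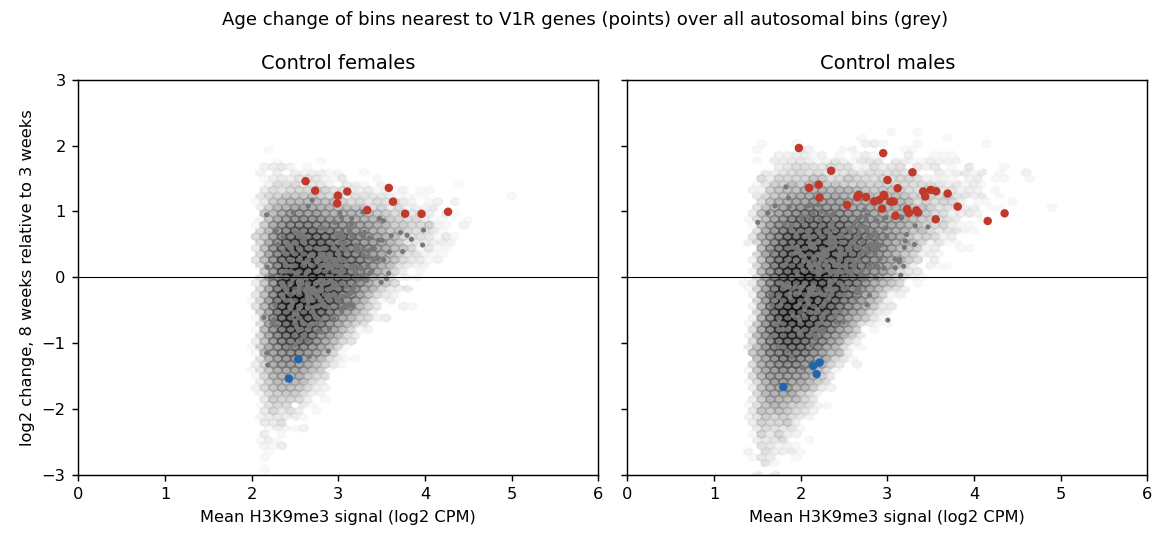
Log2 change from 3 to 8 weeks (y axis) against mean H3K9me3 signal in log2 CPM (x axis) in control females and control males. Grey hexagons are all autosomal bins (darker for more bins, on a log scale), small points are member bins, and large points are members called at an FDR under 0.05 (red higher at 8 weeks, 11 in females and 34 in males; blue lower, 2 and 4). The called gains sit mostly at the highest signal, and no called loss is in the highest decile.

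Signal strength moved with these calls. Over all autosomal bins the median change went from -0.30 in the lowest decile of signal to 0.30 in the highest in females, and from -0.48 to 0.45 in males. Of the members, 24.8% in females and 33.2% in males were in the highest decile. That decile held 7 of the 11 female and 28 of the 34 male gains, so that 25.9% of the male members in it were called higher, against 14.4% of all autosomal bins in it. When the median change of each GC and signal decile was subtracted and p-values were recomputed, 4 female member bins passed (1.31%, against 0.716% of autosomal bins) and 12 male bins (3.69%, against 1.66%). All 16 of these were gains. Of the bins called on the deposited values, 3 in females (Vmn1r16, Vmn1r41 and Vmn1r228) and 8 in males (Vmn1r11, Vmn1r16, Vmn1r42, Vmn1r66, Vmn1r223, Vmn1r228, Vmn1r233 and Vmn1r236) still passed, and the other 10 and 30 did not. The median change of the members after the subtraction was 0.02 in females and 0.16 in males.

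The tables list 1 bin per peak, and 170 of the 306 female and 164 of the 325 male member peaks were longer than 1 bin. Among the peaks of a single bin, for which no bin had to be chosen, 3 of 136 female member bins were called (2.21%, against 2.07% of such autosomal bins) and 10 of 161 male ones (6.21%, against 3.24%). By direction, all 3 female calls were gains (2.21%, against 0.373% of such autosomal bins higher and 1.69% lower), and 8 of the 10 male calls (4.97%, against 1.10% higher).

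The genes of the V1ra and V1rb families lie together on chromosome 6, and their cluster was among those with the most gains. The bin nearest to Vmn1r41 (chromosome 6, 89761758 to 89762258) had the smallest p of the members in females, with a derived level of 6.73 CPM at 3 weeks and 17.2 CPM at 8 weeks (log2 change 1.36, SE 0.28, FDR 0.000545). The overlapping male bin gave 6.46 and 16.2 CPM (log2 change 1.33, SE 0.29, FDR 0.00110). A second male bin assigned to the same gene was called as well (1.18, SE 0.32, FDR 0.0171).

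Vmn1r42, Vmn1r43, Vmn1r40 and Vmn1r53 of the same cluster also had gained bins in males. The bin nearest to Vmn1r42 (89828728 to 89829196) went from 4.87 to 14.7 CPM (log2 change 1.59, SE 0.29, FDR 2.48e-05), and a second bin at the same gene changed by 0.85 (SE 0.26, FDR 0.0373). The bin of Vmn1r43 (89865999 to 89866499) is one of the few that overlapped a receptor: it lies on the exon that the annotation gives as the 3′ UTR, inside the GENCODE span of Vmn1r42 as well, and changed by 1.48 (SE 0.30, FDR 0.000374). Beside Vmn1r53, different bins were called in each sex, 90232316 to 90232816 in males (1.30, SE 0.28, FDR 0.000933), on an exon of the gene model Gm20426, and 90233277 to 90233777 in females (0.97, SE 0.27, FDR 0.0239). In all, 2 of the cluster's 25 female bins (8.00%, against 2.08% of all autosomal bins) and 7 of its 27 male bins (25.9%, against 4.36%) were called, each of them a gain.

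The V1rc family occupies other, separate stretches of chromosome 6, together with genes to which RefSeq gives no V1r synonym. Its called bins all lay in the same stretch. In females the bin nearest to Vmn1r17 (57343064 to 57343564) went from 7.71 to 17.1 CPM (log2 change 1.15, SE 0.27, FDR 0.00407), and in males that locus gave 0.76 (SE 0.28, FDR 0.114), while another bin of the gene was called in males (57374545 to 57375045, 1.02, SE 0.29, FDR 0.0265). Bins near Vmn1r16 were called in both sexes at neighbouring positions, with 1.31 (SE 0.40, FDR 0.0477) in females and 1.62 (SE 0.36, FDR 0.00159) in males. In males, gains were also called near Vmn1r27, Vmn1r29 and Vmn1r11, and at a second bin of Vmn1r16 (0.88, SE 0.27, FDR 0.0415). Of the 53 female V1rc bins 2 were called (3.77%, against 2.08% of all autosomal bins), both higher. Of the 60 male bins 7 were called (11.7%, against 4.36%), of which 6 were higher. The median change of the family was 0.06 in females and 0.45 in males.

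The same stretch held losses. The bin nearest to Vmn1r31 (58463971 to 58464471), in an intron of the long noncoding gene model Gm35077, fell by 1.54 on the log2 scale in females (SE 0.43, FDR 0.0226), from 8.02 to 2.76 CPM. In males a bin 43964 bp from the start of Vmn1r27 (58171561 to 58172053) gave a log2 change of -1.47 (SE 0.42, FDR 0.0238), while another bin of that gene was called higher (1.23, SE 0.29, FDR 0.00285). Bins sharing a nearest receptor therefore did not always move in 1 direction.

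On chromosome 17, where the V1rf genes and some of the V1re genes lie, gains were called near the same 4 receptors in each sex. A bin near Vmn1r226 was called in males only (1.23, SE 0.30, FDR 0.00493), with 0.38 in females (SE 0.27, FDR 0.589). The bin nearest to Vmn1r233 (20984963 to 20985463) had the smallest p of all members in males, and its derived level went from 3.30 to 12.2 CPM (log2 change 1.88, SE 0.32, FDR 5.43e-06). The overlapping female bin went from 5.00 to 10.9 CPM (1.12, SE 0.32, FDR 0.0273). Near Vmn1r228 the largest gains among the members were found, 1.96 (SE 0.42, FDR 0.000792) in males and 1.46 (SE 0.39, FDR 0.0149) in females, at bins that neighbour each other without overlapping. The strongly marked bin at Vmn1r230 changed by 0.97 (SE 0.25, FDR 0.00776) in males and 0.99 (SE 0.24, FDR 0.00450) in females. Vmn1r236 had neighbouring called bins in each sex, at 1.24 (SE 0.34, FDR 0.0210) in females and 1.41 (SE 0.39, FDR 0.0192) in males. Of 28 female bins in this cluster 4 were called (14.3%, against 2.08% of all autosomal bins). Of 26 male bins 5 were called (19.2%, against 4.36%), and none of the calls in either sex was a loss.

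Chromosome 7 holds the most member bins and is home to the V1rd, V1rg, V1rj and V1rk families and to some V1re genes, Vmn1r66 among them. Its largest cluster, with the V1rg genes, had 1 called bin among 67 for females (1.49%, below the 2.08% of all autosomal bins). For males it had 7 among 65 (10.8%, against 4.36%), and the called bins of both sexes were all higher. The locus nearest to Vmn1r81 was called in both sexes, with 1.30 (SE 0.30, FDR 0.00367) in females and 1.04 (SE 0.31, FDR 0.0314) in males, and so was that of the V1rd gene Vmn1r64, on an exon of the gene model Gm20399 (0.96, SE 0.25, FDR 0.0127, and 1.27, SE 0.28, FDR 0.00124). In males the bins nearest to Vmn1r66 (1.31, SE 0.27, FDR 0.000558) and Vmn1r84 (1.35, SE 0.30, FDR 0.00156) followed. The male bins of Vmn1r41, Vmn1r66, Vmn1r84 and Vmn1r87 (0.98, SE 0.28, FDR 0.0229) carry the stretch shown above.

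In 1 cluster of chromosome 7 the called bins of males were losses, although 28 of its 41 male bins had a positive change. Of the 41, 3 were called (7.32%) and each was lower at 8 weeks: 2 assigned to Vmn1r173 and 1 to Vmn1r167. Over all autosomal bins of males 4.36% were called, and 2.00% were called lower. None of the 3 passed with the GC and signal trend removed (adjusted p = 0.101, 0.120 and 0.154), where their changes were still negative at -1.14, -1.12 and -1.20. The bin on the 3′ UTR of Vmn1r173 (23708912 to 23709296) had the largest loss of any member in males, from 5.30 to 1.67 CPM (log2 change -1.67, SE 0.46, FDR 0.0181). In females the single called bin among the cluster's 35 (2.86%, against 2.08% of all autosomal bins) was a gain. It lay near Vmn1r175 on an exon of Gm44576 (1.02, SE 0.29, FDR 0.0277). The median change of the cluster was -0.07 in females and 0.20 in males.

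On chromosome 13, with the V1rh and V1ri families, none of 47 female bins and 5 of 52 male bins (9.62%) were called, all 5 higher. Over all autosomal bins the called shares were 2.08% in females and 4.36% in males. The bin near Vmn1r191, one of the most strongly marked members in males, went from 9.05 to 19.0 CPM (log2 change 1.07, SE 0.26, FDR 0.00463). The 5 bins were assigned to Vmn1r191, Vmn1r196, Vmn1r200, Vmn1r223 and Vmn1r-ps103, with changes from 1.07 to 1.25. The female count of 0 there stands beside a median change of 0.07 against 0.19 in males. Vmn1r238, alone on chromosome 18, had a loss in females (-1.24, SE 0.38, FDR 0.0470) and 2 gains in males at other positions (1.03 and 0.93). Vmn1r3 on chromosome 4 had 1 gained bin in males, 150933 bp from the gene's start (1.22, SE 0.34, FDR 0.0196). No bin of Vmn1r1 on chromosome 1 was called.

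**Figure D2:**
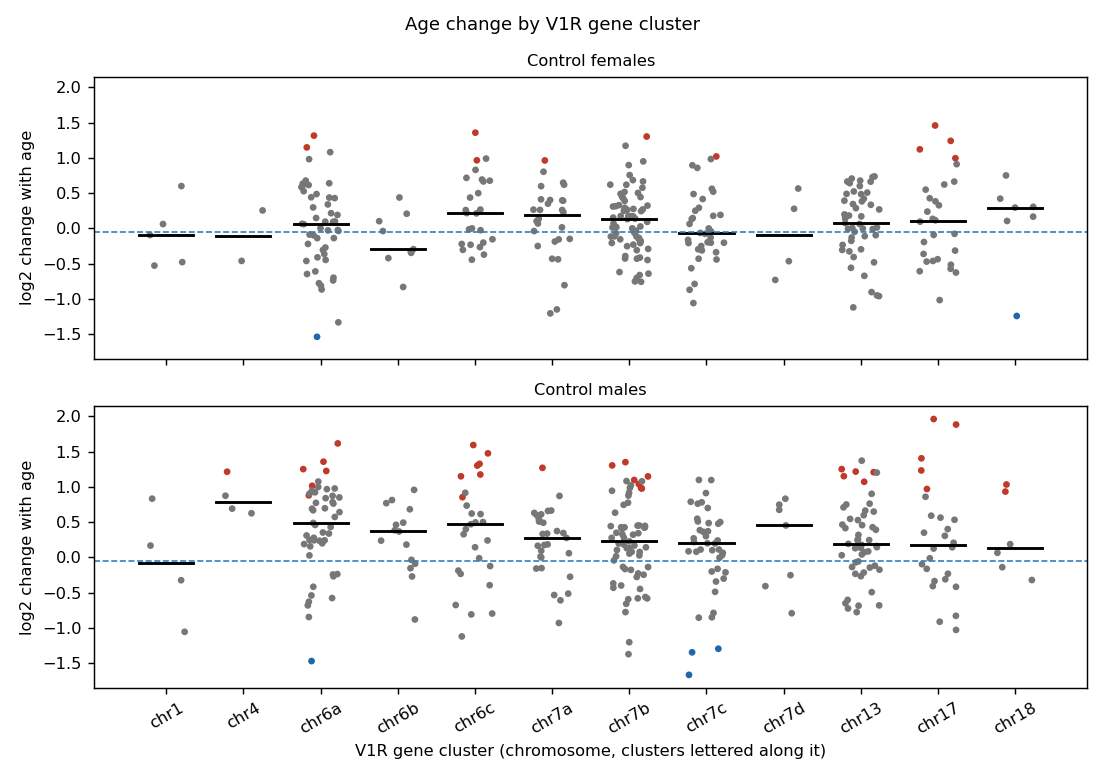
Log2 change from 3 to 8 weeks (y axis) of each member bin by V1R gene cluster (x axis, lettered along chromosomes with several clusters), for control females and control males. Black bars are cluster medians, the dashed line is the median of all autosomal bins (-0.05 in both sexes), and red and blue points are bins called higher and lower. In males the cluster medians lie above the dashed line except on chromosome 1, where the median of 4 bins is -0.08.

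No called bin lay within 3 kb of a receptor's start, and the called bins were 8275 to 34563 bp from it in females and 4030 to 150933 bp in males. The 9 female and 10 male promoter bins had changes between -0.79 and 0.87. The bin over the RefSeq start of Vmn1r45, whose sequence is shown above, lay 48 bp from the start used in the authors' annotation and gave 0.50 (SE 0.40, FDR 0.659) in females. Near the start of Vmn1r65 the change was 0.39 (SE 0.38, FDR 0.744) in females and 0.87 (SE 0.38, FDR 0.226) in males. By the exact test, 1 of the 9 female promoter bins (11.1%) and 2 of the 10 male ones (20.0%) had an unadjusted p under 0.05. Over all autosomal bins these shares were 16.5% and 21.7%. With so few bins at starts, the values do not settle whether the mark changed there. Of all called bins, 3 overlapped a V1R gene, all in males: those of Vmn1r43 and Vmn1r173 on exons and that of Vmn1r88 in an intron (1.10, SE 0.34, FDR 0.0404).

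Genes with many bins did not all have a called bin. Over the 6 tables, Vmn1r72 had 62 bin entries, Vmn1r64 51, Vmn1r66 49, Vmn1r65 38, and Vmn1r27 and Vmn1r238 37 each. None of the 12 female and 10 male bins of Vmn1r72 was called, and their changes ran from -0.66 to 0.50 in females and from -1.37 to 1.08 in males. The bins of Vmn1r65 ran from -1.21 to 0.80 and from 0.01 to 0.87, with none called. At Vmn1r64, 1 of 8 female and 1 of 10 male bins was called, both at the locus named above, while the others ranged down to -0.44 and -0.93. Bins around 1 receptor thus differed among themselves.

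Female and male changes could be compared at 193 pairs of bins that overlapped by at least 50% of each and were assigned to V1R genes. The 2 age comparisons share no library. Per the study, the 8-week mice were additional cohorts that had been weaned onto chow. In both sexes, age therefore cannot be told apart from cohort or from the change of diet at weaning. The change had the same sign in 141 pairs (73.1%, against 64.5% of all 54208 autosomal pairs), and Spearman's rho was 0.54 across these pairs, which share chromosomes, repeat content and signal level, against 0.41 across all autosomal pairs. Within the 193 pairs 24 bins were called in males and 7 in females, while among the 54208 autosomal pairs 2312 and 890 were called and 341 in both. The 5 member pairs called in both sexes were the loci of Vmn1r41, Vmn1r64, Vmn1r81, Vmn1r230 and Vmn1r233, each higher at 8 weeks. With the trend removed none of the 5 passed in both sexes: Vmn1r41 passed in females (adjusted p = 0.0497, and 0.0632 in males) and Vmn1r233 in males (adjusted p = 0.0332, and 0.106 in females). By gene, 13 receptors had a called bin in females and 32 in males, and 11 were shared, which is 84.6% of the female and 34.4% of the male list. One of the 11, Vmn1r238, had a loss in females and gains in males. Over all autosomal genes with a called bin, 1037 were shared, or 49.8% of the 2082 female and 22.4% of the 4623 male genes.

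The male change exceeded the female one in 122 of the 193 pairs, with a median difference of 0.16, and in 30328 of the 54208 autosomal pairs, with a median difference of 0.08. No pair passed a test of the difference adjusted over all autosomal pairs (background 0%), and 14 had an unadjusted p under 0.05 (7.25%, against 6.40% of autosomal pairs). The smallest p belonged to a bin near Vmn1r26, at 0.85 in males and -0.87 in females (difference 1.72, SE 0.55, adjusted p = 0.416). At Vmn1r42 the difference was 1.16 (SE 0.40, adjusted p = 0.490) and at Vmn1r43 it was 1.22 (SE 0.48, adjusted p = 0.600). At Vmn1r41 and Vmn1r230, in contrast, the differences were -0.03 (SE 0.40) and -0.02 (SE 0.34). The larger number of calls in males was therefore not shown to be a difference between the sexes at any single bin.

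**Figure D3:**
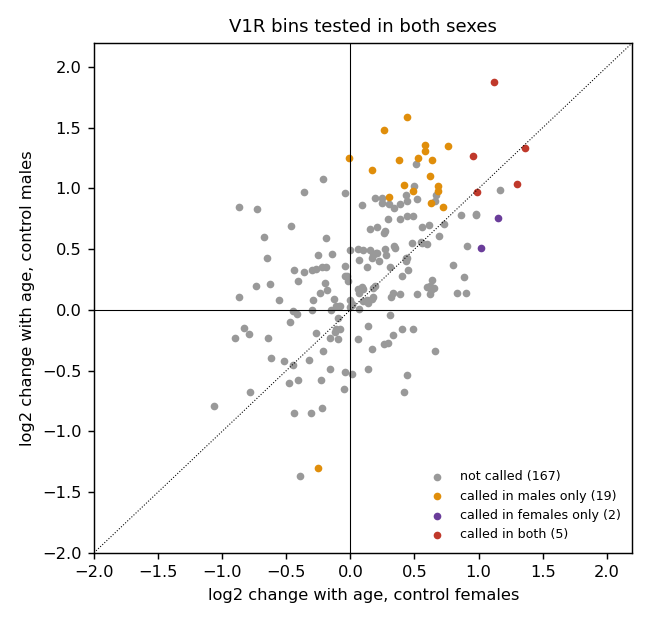
Log2 change from 3 to 8 weeks in control males (y axis) against control females (x axis) at 193 pairs of overlapping member bins. Colours give the sex in which a bin was called at an FDR under 0.05, and the dotted line marks equal change. Both changes are positive in 108 pairs and both negative in 33, and the 5 bins called in both sexes lie at the upper right.

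Most member bins, and most of the gained ones among them, recurred in sequence at other autosomal bins. A copy was counted where another autosomal bin of the same table that was not itself a member aligned over at least 150 bases at 75% identity or more. In males 148 of 325 member bins had at least 100 copies, and 20 of these were called higher and 1 lower (14.2% called, against 4.36% of all autosomal bins). Bins with 1 to 99 copies had 12 gains and 1 loss among 123 (10.6%), and bins without a copy 2 gains and 2 losses among 54 (7.41%). The median change was 0.45, 0.15 and 0.19 in these classes. In females the classes had 7, 3 and 1 gains and 1, 0 and 1 losses among 129, 124 and 53 bins, with medians of 0.25, -0.07 and -0.03. The called shares in females were 6.20%, 2.42% and 3.77%, against 2.08% of all autosomal bins. Median signal was 5.96, 4.92 and 4.56 CPM in the male classes and 8.19, 6.38 and 6.52 CPM in the female ones.

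Most of the bins that matched a gained member also had positive changes, although some of them may lie inside V1R clusters beside another gene. In males, 6361 other autosomal bins matched a gained member bin, and their median change was 0.49, with 716 called higher and 11 lower (11.4%). In females 4216 such bins had a median change of 0.29, with 131 called higher and 15 lower (3.46%). Other bins that matched any member also leaned upwards. Their median was 0.29 with 7.89% called among 17189 in males, and 0.20 with 2.43% called among 14984 in females. Over all autosomal bins 4.36% were called in males and 2.08% in females. Among autosomal bins that were mostly soft-masked these shares were 6.51% and 2.61%, so the female 2.43% was close to the background. Median signal in the bins matching a gained member was 6.04 CPM in males, against 4.29 over all autosomal bins. In females it was 7.86 CPM against 6.25. Taken for each gained bin with at least 100 copies, the median change of the copies was positive for 20 of 20 male bins and 6 of 7 female bins, the exception being Vmn1r175 at -0.09. The 1030 copies of the male Vmn1r42 bin had a median change of 0.58, and 189 of them were called, all higher. The 53 copies of the male Vmn1r228 bin had a median change of 1.32, and 38 were called, again all higher. Of the 6 losses, those of Vmn1r31, Vmn1r167 and the 3′ UTR of Vmn1r173 had no copy, and that of Vmn1r27 had 1. The female loss at Vmn1r238 had 187 copies, with a median change of -0.21. The other male loss at Vmn1r173 had 1864 copies with a median change of 0.38, opposite to its own. How reads that align to several copies were treated is not given in the sources used here, and its part in these values was not tested.

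**Figure D4:**
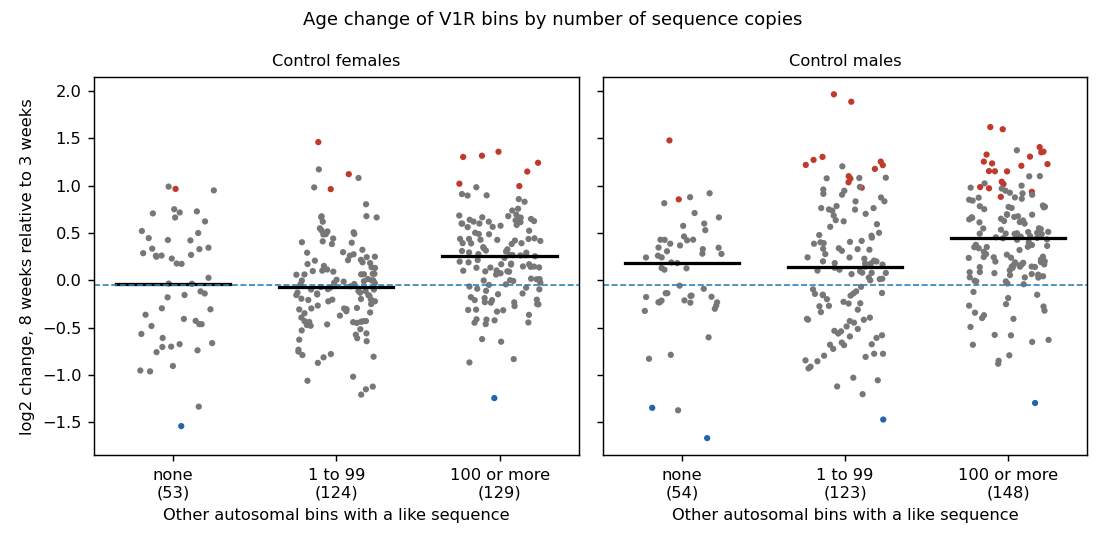
Log2 change from 3 to 8 weeks (y axis) of member bins grouped by the number of other autosomal bins with a like sequence (x axis, number of member bins in parentheses). Black bars are class medians, the dashed line is the median of all autosomal bins, and red and blue points are bins called higher and lower. The class with 100 or more copies has the highest median in each sex, 0.25 in females and 0.45 in males.

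The second question was whether the diet of the dam altered the mark near these receptors. No member bin had an FDR under 0.05 in any of the 4 MO comparisons, as no bin did over all autosomes, so the calls rest on the unadjusted p. At 3 weeks 1 of 318 female member bins passed (0.314%, against 0.212% of autosomal bins) and 3 of 332 male ones (0.904%, against 0.278%), all higher with MO. With the GC and signal trend removed, none of the male bins passed at 3 weeks. At 8 weeks none passed in either sex, against a background of 0.168% in females and 0.112% in males. At an unadjusted p under 0.05 there were 31 female bins (9.75%, against 7.74% of autosomal bins) and 31 male bins (9.34%, against 8.83%) at 3 weeks. At 8 weeks there were 17 (5.59%, against 7.04%) and 9 (3.11%, against 6.51%), below the background share in both sexes. At 3 weeks the median change of the members was 0.11 for females, against -0.01 over autosomal bins, and 0.17 for males, against 0.03. Other sets leaned upwards at that age too. The medians were 0.05 in females and 0.13 in males for autosomal bins that were mostly soft-masked. They were 0.10 and 0.20 for bins nearest to Vmn2r receptors, and 0.08 and 0.14 for those nearest to olfactory receptors. At 8 weeks the median of the members was 0.10 against 0.01 over autosomal bins in females, and -0.03 against 0.00 in males.

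The female bin that passed edgeR's exact test at this threshold was that nearest to Vmn1r81 (chromosome 7, 12243514 to 12244014), at 4.29 CPM in control and 9.10 CPM in MO offspring at 3 weeks (log2 change 1.09, SE 0.31, p = 0.000560, FDR 0.682). This is the locus that was called higher with age in both sexes, and the control libraries at 3 weeks enter both comparisons. In males the bins that passed the exact test were near Vmn1r26 (1.24, SE 0.35, p = 0.000408, FDR 0.519), Vmn1r78 (1.51, SE 0.43, p = 0.000421, FDR 0.519) and Vmn1r61 (1.03, SE 0.31, p = 0.000826, FDR 0.591). The Vmn1r78 bin was weakly marked, at 1.68 CPM in control and 4.79 CPM in MO males. All 4 bins were distal intergenic, and between 59.9% and 100% of their bases were soft-masked.

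No MO change at these loci passed at 8 weeks, and the male Vmn1r78 bin had no matching bin at that age. The Vmn1r81 bin gave -0.16 at 8 weeks in females (difference from 3 weeks -1.25, SE 0.43, adjusted p = 0.797), and the Vmn1r26 bin gave -0.53 in males (difference -1.77, SE 0.54, adjusted p = 0.658). The Vmn1r61 bin stayed positive in males at 0.43 (difference -0.60, SE 0.50). No member pair passed a test of the difference between ages, out of 236 pairs in females and 229 in males, with 13 (5.51%, against 5.31% of autosomal pairs) and 16 (6.99%, against 5.62%) at an unadjusted p under 0.05. By the exact test, the smallest p at 8 weeks belonged to a bin near Vmn1r1 in females (-1.12, SE 0.36, p = 0.00187) and to one in an intron of Vmn1r68 in males (1.03, SE 0.42, p = 0.0129). The bins that followed had changes of 0.95 near Vmn1r3 and 1.01 near Vmn1r9 in females, and of -1.01 near Vmn1r34 and -0.94 near Vmn1r9 in males. At 3 weeks those next in order in females were near Vmn1r84 (1.14) and Vmn1r233 (-1.05).

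The loci gained with age in males can be followed through all comparisons where a bin overlapped them. Of the 34, 23 had a female age bin, and 22 of those were positive with a median of 0.62. With MO in males at 3 weeks, 19 of 22 were positive with a median of 0.45, and at 8 weeks 2 of 24 were positive with a median of -0.20. In females the medians with MO were 0.16 at 3 weeks (13 of 18 positive) and 0.06 at 8 weeks (12 of 22). The MO comparisons of males share their control libraries with the male age comparison, so these values are given side by side and are not independent of the choice of loci. The strongly marked Vmn1r230 locus gave MO changes between -0.18 and 0.07 in the 4 comparisons.

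**Figure D5:**
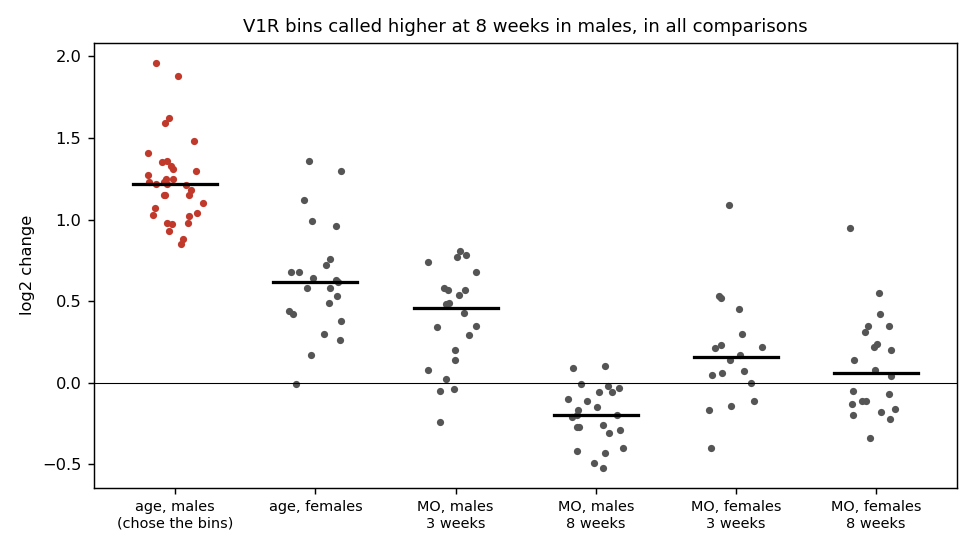
Log2 change (y axis) of the 34 member bins called higher at 8 weeks in control males, in the comparison that chose them (red) and at overlapping bins in the other 5 comparisons (grey), with black bars for medians. The medians are 1.22, 0.62, 0.45, -0.20, 0.16 and 0.06 from left to right.

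Genes that act with V1Rs in vomeronasal neurons were described from a list of 37, which holds the G protein subunits, phospholipases, channels, receptor transporters, formyl peptide receptors and the transcription and axon guidance factors of these cells. In females 34 of them had 301 bins in the age table, of which 7 were called higher and 6 lower (4.32% called, against 2.08% of autosomal bins). In males 35 had 393 bins, with 10 higher and 10 lower (5.09%, against 4.36%). Gng8, a G protein gamma subunit of vomeronasal neurons, had a bin called higher in both sexes (0.96, SE 0.23, FDR 0.00564 in females and 1.57, SE 0.26, FDR 1.55e-06 in males). So had Bcl11b, a transcription factor of developing vomeronasal neurons, at intronic bins with 1.32 (SE 0.28, FDR 0.000818) and 1.70 (SE 0.35, FDR 0.000502). The bin at the promoter of Kirrel2, an axonal adhesion molecule, was lower in females (-1.77, SE 0.44, FDR 0.00709). With MO, 1 bin of the list passed the exact test at p under 0.001, in an intron of the chloride channel gene Ano2 in males at 8 weeks (-1.20, SE 0.36, p = 0.000874). It was 1 of 268 bins (0.373%, against 0.112% of autosomal bins), and none passed in the other 3 MO comparisons. The same bin was higher at 8 weeks in control males (1.76, SE 0.37, FDR 0.000527), whose libraries enter both comparisons.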

How the data were processed

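H3K9me3 ChIP-seq tables of 6 comparisons were used as the authors deposited them. Per the study's methods, reads were aligned to mm10/GRCm38 with BWA, and broad peaks were called with MACS2, filtered for blacklisted regions, kept if found in at least 3 replicates, merged per sex and cut into bins. The authors counted reads with featureCounts and tested contrasts with edgeR's exact test. In the deposited tables the group ratios and mean CPM are on a log2 scale. The deposited p-value of each bin comes with an FDR. The study's methods give an approximate read number common to all libraries. The depth reached by each library, the scaling between libraries and the treatment of multiply aligned reads are not given in the sources used here. The tables list 1 bin per peak, also for the 170 female and 164 male member peaks longer than 1 bin in the age tables, and how that bin was chosen is not stated. Had the test result been used to choose it, the p-values and FDRs of those peaks would be too small, which was not tested.

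The contrasts were not refitted, and planned tests on counts gave way to the deposited values. The sign of the age tables (3 weeks relative to 8 weeks) was turned. Approximate SEs were the change divided by the normal quantile of its p-value (where p exceeded 0.9, the median of bins of like signal). Differences between sexes or ages used these SEs with Benjamini-Hochberg adjustment over all autosomal pairs. Masking and GC came from the GRCm38.p6 sequence, copies from BLAST 2.17.0 and gene overlaps from GENCODE. Named bins were, per age comparison, called members (at most 12 by p; others were named after their values were seen), and per MO comparison the 3 with the smallest p. The members and lists were chosen with earlier results of these data known. Functions were tested on simulated data. Analyses used Python 3.11.15, pandas 2.3.3 and scipy 1.17.1. Alternatives were other thresholds, a minimum fold, signal, GC and signal trend, distance, annotation, peak length, merging and bin overlap. The input libraries and RNA-seq were not used here.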

Additional observations from a re-analysis of the deposited data

How the results depend on the processing

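The number of member bins called with age was 13 in females and 38 in males. It became 4 and 16 at an FDR under 0.01 and 4 and 12 with the GC and signal trend removed. Within 10 kb of a start it was 4 of 95 and 6 of 99 bins. Without distal intergenic bins it was 3 of 56 and 6 of 54 (5.36% and 11.1%, against 4.25% and 11.7% of all member bins). In single-bin peaks it was 3 and 10 (2.21% and 6.21%, against 2.07% and 3.24% of such autosomal bins). At an FDR under 0.1 it was 21 in females. Of the called bins, 3 in females and 8 in males still passed with the trend removed, and all kept their sign. In alternatives chosen after seeing the data it was 3 and 11 in bins masked under 50% (3.16% and 11.5%, against 1.94% and 3.79% of such autosomal bins), and 2 and 4 in bins with no copy (3.77% and 7.41%). Restricting to fewer bins lowers a count by construction. Adjustment over the deposited bins, a minimum fold, higher signal, merging and counting genes left the counts within 1.5 times. With MO, a limit of 0.01 on p called 8 female (2.52%, against 1.77% of autosomal bins) and 16 male bins (4.82%, against 2.07%) at 3 weeks and 4 female bins (1.32%, against 1.53%) at 8 weeks, while p under 0.0001, an FDR under 0.05 and the 10 kb limit gave 0. For females at 3 weeks single-bin peaks gave 0, and with the trend removed males at 3 weeks gave 0 and females at 8 weeks 1; the cause was not tested. The counts of differences between sexes and between ages remained 0 under any overlap. No member bins had identical coordinates in both sexes. No paired analysis was possible because the tables hold no values per library, and for the same reason no replicate was left out in turn.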

Other observations

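The other chemosensory receptor families were counted in the same tables. Bins nearest to autosomal type 2 vomeronasal receptors (Vmn2r), which are expressed in the basal layer of the vomeronasal organ, numbered 364 in females and 419 in males; 13 and 27 were higher at 8 weeks and 1 and 4 lower, and their median changes were 0.13 and 0.29. The called shares were 3.85% and 7.40%, against 2.08% and 4.36% of all autosomal bins and 4.25% and 11.7% of the V1R bins. For olfactory receptors, 16 of 1045 female and 44 of 1214 male bins were higher, 11 and 18 were lower, and the medians were 0.11 and 0.17. Their called shares, 2.58% and 5.11%, were near those of all autosomal bins. By direction they were less alike. The shares of olfactory receptor bins called higher were 1.53% and 3.62%, against 0.812% and 2.36% of all autosomal bins. Those called lower were 1.05% and 1.48%, against 1.27% and 2.00%. The soft-masked share of a Vmn2r bin was 72.4% in females and 71.7% in males, close to that of the V1R bins, and 64.3% and 65.1% for olfactory receptors.

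Bins that lay inside the V1R clusters but were nearest to another gene also leaned upwards. There were 142 in females, 6 called higher and 1 lower with a median of 0.13, and 156 in males, 5 called higher and 4 lower with a median of 0.22. Their called shares were 4.93% and 5.77%, against 4.25% and 11.7% of the V1R bins and 2.08% and 4.36% of all autosomal bins. Among autosomal bins masked over at least 50% of their bases, 1.53% in females and 4.86% in males were higher at 8 weeks, against 4.27% and 11.4% of member bins with that masking. Below that masking the shares were 0.612% and 1.69% of autosomal bins and 2.11% and 8.33% of member bins. These families were not compared by a test.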
